A study of Mus musculus with 15 samples.

Results

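Pre-mRNA splicing factors were followed in Ba/F3-beta cells, an IL-3-dependent mouse pro-B cell line. The genes taken were those whose symbol starts with Srsf, Hnrnp, Snrp, Sf3a or Sf3b, and every probe set annotated to 1 such gene was used. The rule gave 102 probe sets of 44 genes, out of 36701 non-control probe sets, of which 29131 carried 1 gene symbol and together covered 15964 genes. Of the 102, 58 were on the U74A array design, 18 on U74B and 26 on U74C. By role they were 29 probe sets of 9 SR protein genes, 37 of 18 hnRNP genes, 12 of 5 genes of the Sm ring, 7 of 3 genes of U1 and U2 small nuclear ribonucleoproteins, 16 of 8 genes of the SF3A and SF3B complexes, and 1 of a pseudogene, Snrp1c-ps2.

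Introns are removed by the spliceosome, which is built from small nuclear RNAs and their proteins. A ring of Sm proteins sits on the spliceosomal RNAs, U1 recognises the start of the intron, and U2 with SF3A and SF3B clamps the branch site near its end. SR proteins, which carry RNA recognition motifs and a tail rich in arginine and serine, mostly bind exons and favour their inclusion, while many hnRNP proteins coat the nascent transcript and can oppose them. Cytokine signalling can act on this machinery through the phosphorylation of SR proteins as well as through their mRNA, and only mRNA was measured here.

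There were 5 conditions. Cells given the scramble I control siRNA were left unstimulated or received IL-3 for 30 min or for 2 h, and cells given siRNAs against both Stat5A and Stat5B received IL-3 for 30 min or for 2 h. Stat5 is the transcription factor that the IL-3 receptor activates through Janus kinases, and the series was made to find the genes it controls. Unstimulated cells with Stat5 siRNA were not analysed here. Each condition had 1 array of each of 3 designs, 15 arrays in all, and the design text says that the labelled RNA of a sample went onto all 3 designs. No difference below has a replicate check, and no p-value was computed.

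Values are MAS5 signals, on a linear scale. A signal of 119.866 served as a floor, and signals under it were raised to it before a ratio was taken, so that a ratio with such a signal is written "at least". A difference was called at 2-fold, that is 1 on the log2 scale. The value of a gene is the median over its measured probe sets, and those whose name carries the suffix f, r, i or x, which can cross-hybridise with other transcripts, were used only for genes with no other. The error used below is the spread of 1 log2 ratio read from pairs of probe sets of 1 gene over all genes. It was an SD of 0.25 (2068 pairs) for 30 min of IL-3 against none, 0.32 (1933 pairs) for 2 h against none, 0.29 for 2 h against 30 min with either siRNA (1980 pairs with control siRNA, 2056 with Stat5 siRNA), 0.23 (2114 pairs) between the siRNAs at 30 min and 0.26 (2109 pairs) at 2 h. It holds no spread between cultures.

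Of the 102 probe sets, 68 from 41 genes reached the floor on at least 1 array, 45 on U74A, 12 on U74B and 11 on U74C. Hnrnph2, Hnrnph3 and Snrpb2 had no probe set at the floor. The 2 members just inside it were Snrpb 164742_i_at, with a highest signal of 124.854, and Snrpd3 169806_r_at at 126.578. The 2 just outside were Snrpe 169795_i_at at 118.444 and Hnrnph3 104231_at at 116.972. A single probe set stood behind 23 of the 41 genes.

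The signal left from Stat5a and Stat5b mRNA in the Stat5 siRNA arrays was 50.6% of the control at 30 min and 53.6% at 2 h on Stat5a 100422_i_at. It was 47.6% and at most 47.2% on Stat5a 100423_f_at, and 33.2% and 71.3% on Stat5b 113125_at. Stat5b 113125_at read 536, 499 and 177 without IL-3, at 30 min and at 2 h with control siRNA, and 166 and 126 with Stat5 siRNA. Its share at 2 h was thus taken against a lower control signal, while the Stat5 siRNA signal was near the floor. Stat5b 92199_at was under the floor on all arrays. Trimmed means of the deposited signals lay between 150.037 and 150.097, and log2 signals correlated between 0.902 and 0.964 for arrays of 1 design. Markers of the pro-B and B lineage were mostly under the floor: Cd79b and Ptprc reached it, and the other 10 of 12 on the arrays, Cd79a, Pax5, Ebf1 and Vpreb1 among them, did not. Of the erythroid and megakaryocyte markers 5 of 6 reached it (Epor, Gata1, Hba-a1, Itga2b and Klf1), and this list was higher with Stat5 siRNA: its summed signal was 5025, 4535 and 3864 without IL-3, at 30 min and at 2 h with control siRNA, and 6540 and 5985 with Stat5 siRNA. Hba-a1, an alpha globin, read 467, 471 and 447 with control siRNA and 1103 and 1172 with Stat5 siRNA, and Itga2b, the platelet integrin, read 3366, 3050 and 2908, then 4170 and 4168. Itga2b made up most of the sum. Gata1 and Klf1 were also higher with Stat5 siRNA at both times, but Epor was lower at 30 min, at 147 against 161. Of T and NK markers 1 of 5 reached the floor (Nkg7), of fibroblast and epithelial markers 3 of 7 (Cdh1, Col1a2 and Epcam) and of myeloid and mast cell markers 0 of 8. The RNA came from whole cultures, so less RNA per cell and fewer cells that carry a transcript cannot be told apart.

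Most splicing factor probe sets differed by less than 2-fold between the 5 conditions, as most probe sets of the arrays did. Of the 68 that reached the floor 63 (92.6%) had a highest signal less than 2-fold above the lowest, with a median ratio of 1.34, against 79.6% and 1.51 over all 14553 probe sets. Of the 58 at or above the floor on all 5 arrays of their design 56 did (96.6%), with a median of 1.28, against 90.5% and 1.41 over 10372. The members were also brighter. The median of the mean signal was 419 for the 68, against 258 for the 12454 probe sets with 1 symbol that reached the floor. The part of brightness in these shares was not tested. The 2 exceptions among the 58 were Srsf3 101004_f_at at 2.28-fold and Snrpc 171522_r_at at 5.06-fold. Srsf5 99628_at followed at 1.995-fold, Srsf6 160182_at at 1.89-fold and Hnrnpll 111972_at at 1.79-fold. The 3 exceptions with a signal under the floor were Hnrnpa0 116354_r_at, Srsf6 170718_at and Srsf11 135149_at.

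**Figure D1:**
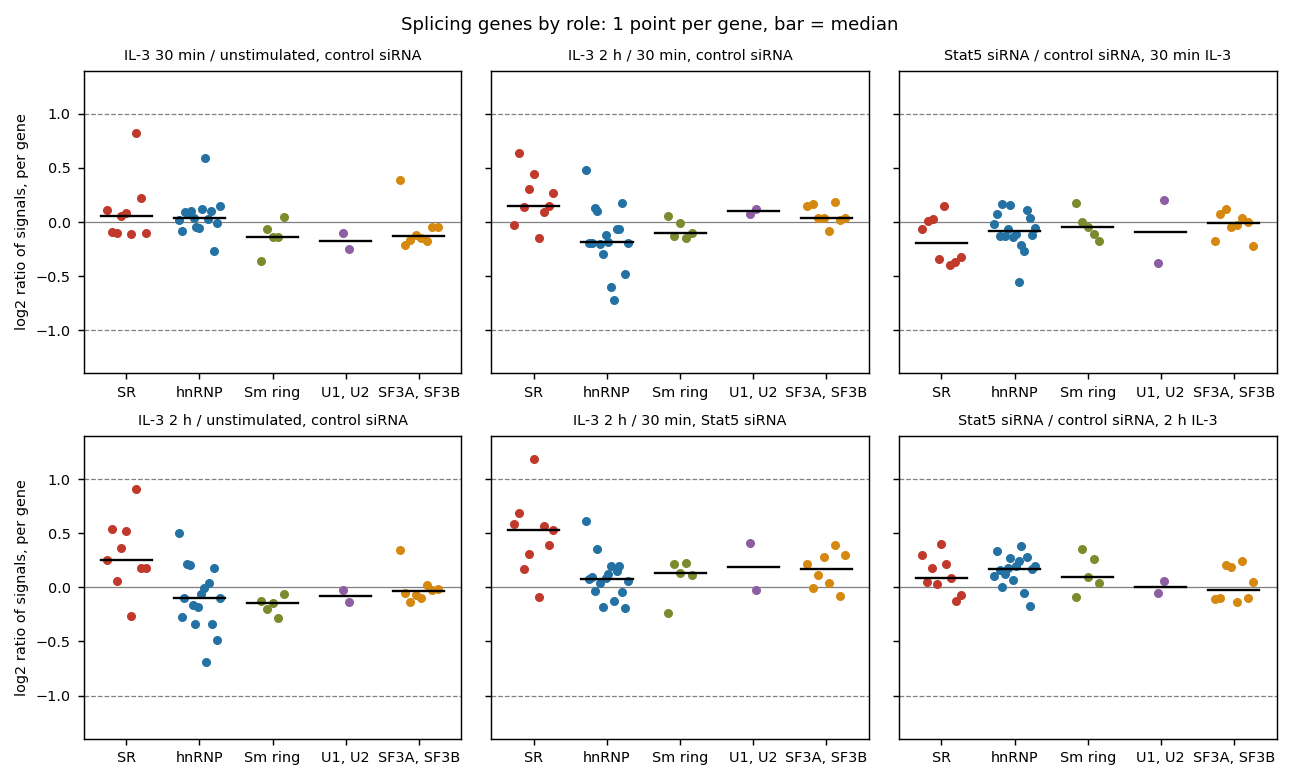
Log2 ratio of signals for each splicing gene in the 6 comparisons, by role, with 1 point per gene, the black bar at the median of the role and dashed lines at 2-fold. Only Srsf3, in the Stat5 siRNA panel of 2 h over 30 min, lies past 2-fold, and for 2 h over none with control siRNA the median of the SR protein genes, 0.25, is the one role median above 0.

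The first question was what IL-3 did in cells with control siRNA after 30 min. No member gene passed 2-fold: 0 of 40 measured were higher and 0 lower, against 0.711% higher and 0.343% lower among all 8155 genes. The median of the members was -0.05 and that of all genes -0.01. The largest value belonged to Srsf5, an SR protein first known as a gene induced in regenerating liver. Its probe set 99628_at read 666 without IL-3, 1176 after 30 min and 1253 after 2 h with control siRNA, and 895 and 1328 at these times with Stat5 siRNA. Every array with IL-3 was above the one without. With control siRNA most of the difference was there at 30 min. With Stat5 siRNA the signal was higher at 2 h than at 30 min. Its level without IL-3 under this siRNA is not known, so the course from none to 30 min cannot be compared between the siRNAs. The ratio with control siRNA was 1.77-fold at 30 min (log2 0.82) and 1.88-fold at 2 h (log2 0.91). Both were larger than the spread of 1 ratio but short of the 2-fold call.

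Hnrnpl came next at 30 min. It binds CA-rich RNA and regulates many alternative exons, among them those of the CD45 gene Ptprc. Its only measured probe set, 95232_at, read 235 without IL-3, 355 at 30 min and 234 at 2 h with control siRNA, and 241 and 277 with Stat5 siRNA. The control array at 30 min stood above the 4 others, which lay close together. The log2 ratio was 0.59 at 30 min against none and -0.01 at 2 h. Sf3a1, a subunit of the U2-bound SF3A complex, had a log2 ratio of 0.39 at 30 min, from 199 to 261 on 96027_at. At the other end were Snrpb at -0.36, Hnrnpr at -0.27, Snrpc at -0.25, Sf3a2 at -0.21 and Sf3b3 at -0.17. Of these values that of Snrpc equalled the spread of 0.25, those of Sf3a2 and Sf3b3 were inside it, and the others were larger.

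After 2 h of IL-3 with control siRNA again no member gene passed 2-fold. Of 41 measured genes 0 were higher and 0 lower, against 2.45% higher and 1.63% lower among all 8294 genes. Of the 9 SR protein genes 8 were above 0, with a median of 0.25. Of the 16 hnRNP genes 5 were above 0, with a median of -0.10. Of the 5 Sm ring genes 0 were above 0, with a median of -0.14, and of the 8 SF3A and SF3B genes 2 were, with a median of -0.04. The median of all genes was -0.03, with 46.2% above 0. All these medians were smaller in size than the spread of 1 ratio, 0.32. That spread is not the error of a median over several genes, and differences between roles were not tested. The signs of these medians held when each array was scaled to its median and when arrays were quantile normalized, with 6 of 9 SR protein genes above 0 under the first. The hnRNP median was -0.17 with the floor doubled. Both 2 h and 30 min were set against the same unstimulated arrays.

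The SR protein genes highest at 2 h against none were Srsf5, then Srsf10 at 0.54, Srsf3 at 0.52 and Srsf2 at 0.37. Srsf10, which acts as a repressor of splicing when it is dephosphorylated in heat shock and mitosis, was dim. Its probe set 98048_at read 128 without IL-3, 109.5 at 30 min and 186 at 2 h with control siRNA, and 109.5 and 192 with Stat5 siRNA. Both 2 h arrays were above the other 3. Both signals at 30 min were under the floor, so the gene was at least 1.55-fold higher at 2 h than at 30 min with control siRNA and at least 1.61-fold higher with Stat5 siRNA.

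Srsf3 is an SR protein that links splicing to mRNA export. Its probe set 101004_f_at read 651 without IL-3, 690 at 30 min and 936 at 2 h with control siRNA, and 543 and 1237 with Stat5 siRNA. The lowest and the highest of the 5 signals were both from Stat5 siRNA cells. This is a probe set that can cross-hybridise, and the only one of Srsf3 that reached the floor. Of the 3 others, all under the floor on all arrays, 101003_at on U74A read 37.5, 46.9 and 65.5 without IL-3, at 30 min and at 2 h with control siRNA, and 38.3 and 71.1 with Stat5 siRNA. The 2 arrays at 2 h were the highest on this probe set too, at a level where no ratio was taken.

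**Figure D2:**
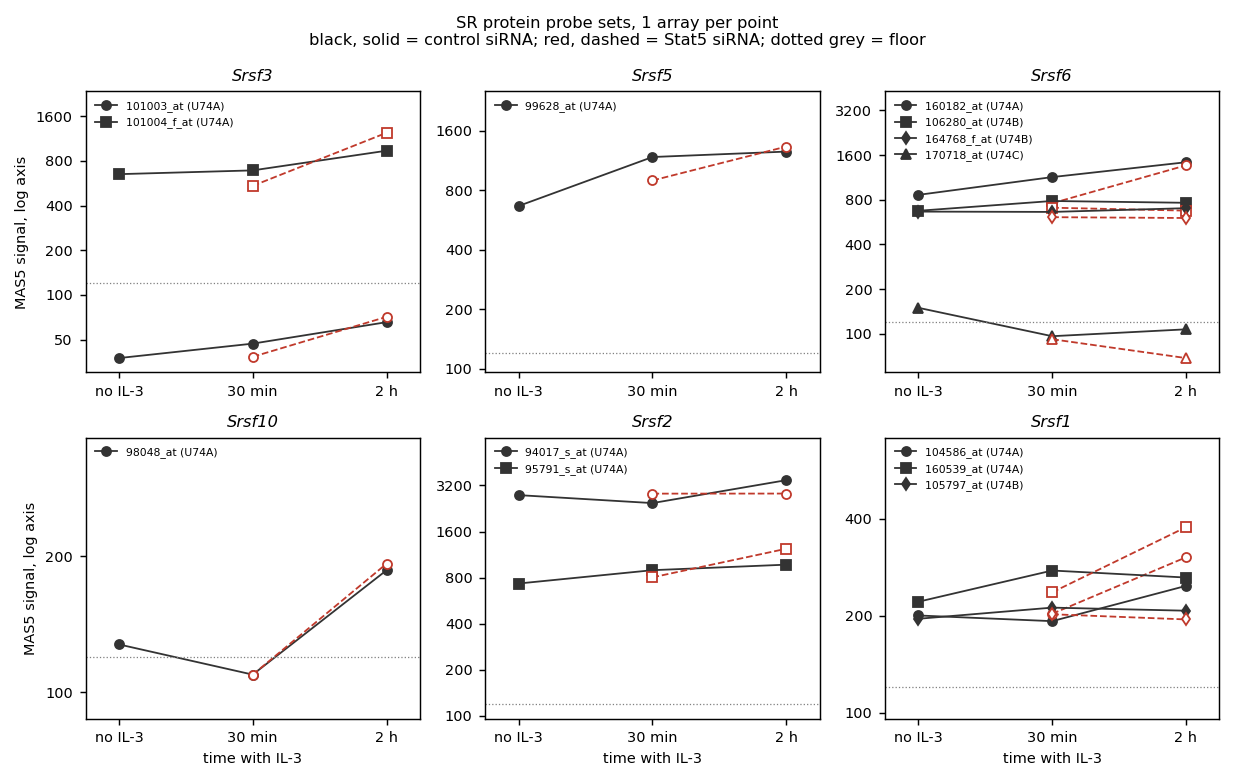
MAS5 signal, on a log axis, of the probe sets of 6 SR protein genes that reached the floor, and of the dim Srsf3 101003_at, against time with IL-3, with 1 array per point, black for control siRNA, red and dashed for Stat5 siRNA, and the floor dotted. Srsf3 101004_f_at goes from 543 to 1237 with Stat5 siRNA, while the U74B probe sets of Srsf6 and Srsf1 stay nearly level.

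Srsf6, an SR protein of constitutive and alternative splicing, differed between its probe sets. On U74A, 160182_at read 864 without IL-3, 1138 at 30 min and 1433 at 2 h with control siRNA, and 758 and 1365 with Stat5 siRNA. On U74B, 106280_at read 674, 785 and 764 with control siRNA and 708 and 676 with Stat5 siRNA. The first gave a log2 ratio of 0.73 for 2 h against none and the second 0.18, and 164768_f_at, also on U74B, gave 0.08. The value of the gene, 0.18, therefore depends on which probe set is used, and was 0.73 with the brightest one. U74C had 170718_at, which read 150 without IL-3 and was under the floor on the 4 other arrays.

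The same held for the SR proteins as a class: their ratios were larger on U74A. For 2 h against none the 11 SR protein probe sets measured on U74A had a median of 0.32, with 9 above 0, and the 5 on U74B had a median of 0.08, with 4 above 0. For 2 h against 30 min with Stat5 siRNA the medians were 0.58 on U74A, with 10 of 11 above 0, and -0.02 on U74B, with 2 of 5 above 0. All probe sets on these designs had medians of -0.02 in the latter comparison. Most SR protein genes were measured on U74A alone. Of the 3 with probe sets on both, Srsf1 and Srsf6 had their higher ratios on U74A, and Srsf11 gave 0.11 on U74A (96609_at) and 0.39 and 0.40 on U74B (113541_at and 162975_at). Whether the design or the choice of probe sets is behind this was not tested.

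From 30 min to 2 h of IL-3 with control siRNA, 0 of 41 member genes were higher and 0 lower by 2-fold, against 1.89% higher and 1.65% lower among all 8234 genes. The SR proteins had a median of 0.15 with 7 of 9 above 0. The hnRNP genes had a median of -0.19 with 4 of 16 above 0, beside 47.6% of all genes. The signs of both medians held under the 2 other scalings. The sizes moved with the setting: the SR median was 0.08 with each array scaled to its median and 0.27 with the brightest probe set, where the hnRNP median was -0.08. The highest values were those of Srsf10 (at least 0.63), Hnrnpa0 at 0.48, Srsf3 at 0.44, Srsf2 at 0.31 and Srsf9 at 0.27. Srsf2, a regulator that also acts in transcription elongation, read 2766, 2454 and 3464 on 94017_s_at without IL-3, at 30 min and at 2 h with control siRNA, and 2829 and 2832 with Stat5 siRNA. Its control array at 2 h was the highest of the 5, a pattern that the other probe set, 95791_s_at, did not share: there the Stat5 siRNA array at 2 h, at 1234, was above the control one at 972.

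The hnRNP genes held the lowest values at 2 h. Hnrnpll, the paralogue of Hnrnpl that drives skipping of CD45 exons in lymphocytes, was lowest. Its 103525_at on U74A read 524 without IL-3, 558 at 30 min and 357 at 2 h with control siRNA, and 402 and 468 with Stat5 siRNA. Its 111972_at on U74B read 428, 416 and 241 with control siRNA, and 430 and 312 with Stat5 siRNA. On both probe sets the control array at 2 h was the lowest of the 5, while the 2 differ in the order of the Stat5 siRNA arrays. The gene was 1.62-fold lower at 2 h than without IL-3 (log2 -0.69), more than the spread of 0.32 and short of the 2-fold call, and its log2 ratio against 30 min was -0.72.

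Hnrnpul1, a member of the hnRNP U group with a part in the response to DNA breaks, read 1709 without IL-3, 1700 at 30 min and 1220 at 2 h with control siRNA on 109745_at, and 1567 and 1369 with Stat5 siRNA. Both 2 h arrays were below the 3 others. Its log2 ratio at 2 h against none was -0.49. Hnrnpdl followed at -0.34, but its 2 probe sets differed: 96084_at went from 318 to 214 and 96083_s_at from 1242 to 1155. Hnrnpr was at -0.34 and Hnrnpa1, the best known splicing repressor of the family, at -0.27. Against 30 min, Hnrnpl was at -0.60, since its 30 min signal was the high one. For 12 of the 23 hnRNP probe sets that reached the floor the control array at 2 h was the lowest of the 5, as it was for 24.5% of all 14553.

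Some hnRNP genes were higher at 2 h. Hnrnpa0, which binds AU-rich mRNA, read 85.5 without IL-3, 121 at 30 min and 170 at 2 h with control siRNA on 116354_r_at, and 97.4 and 183 with Stat5 siRNA. Both 2 h arrays were above the 3 others, and the gene was at least 1.42-fold higher at 2 h than without IL-3. This probe set, too, is of a kind that can cross-hybridise. Hnrnpab was at 0.22 and Hnrnpc at 0.21. Hnrnpu reached the floor with control siRNA only at 2 h, and its log2 ratio was at least 0.18. Hnrnpa2b1, Hnrnpm and Hnrnpk, abundant hnRNP proteins, lay between -0.10 and 0.04.

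**Figure D3:**
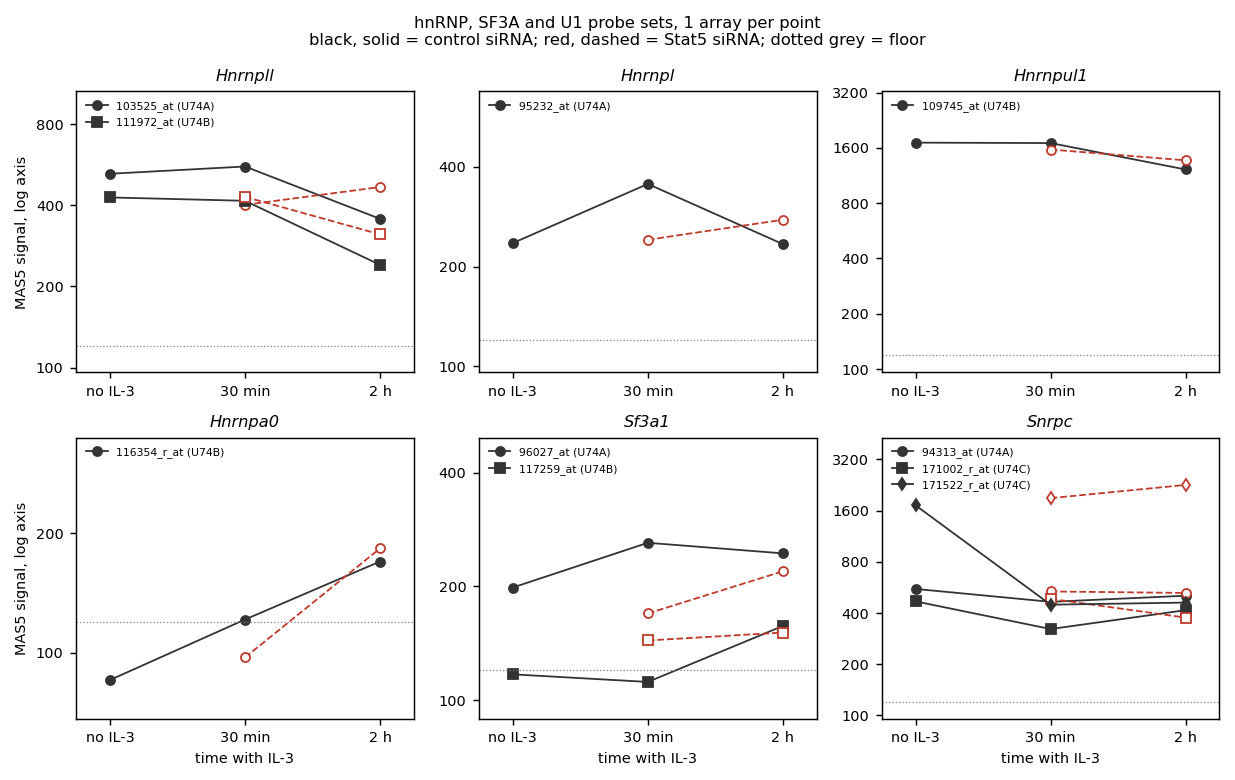
MAS5 signal, on a log axis, of the probe sets of 4 hnRNP genes, Sf3a1 and Snrpc against time with IL-3, with 1 array per point, black for control siRNA, red and dashed for Stat5 siRNA, and the floor dotted. Hnrnpll and Hnrnpul1 have their lowest signal in the control array at 2 h, and Snrpc 171522_r_at stands apart from the other Snrpc probe sets.

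Genes of the core small nuclear ribonucleoproteins lay within a narrow band. Over the comparisons of IL-3 with none and of 2 h with 30 min, the 5 Sm ring genes stayed between -0.36 and 0.23. For Snrpd3 this is the median of probe sets that differed. From 30 min to 2 h with control siRNA 98077_at gave -0.53 and 139522_at 0.26, and at 30 min against none 0.17 and -0.30. Snrpb, which holds the Sm B proteins, read 3875 without IL-3 on 160555_r_at, 3019 and 3143 at 30 min and 2 h with control siRNA, and 3415 and 2897 with Stat5 siRNA. Every array with IL-3 was below the one without. Snrpe had 2328, 2122 and 2107 with control siRNA and 2051 and 2250 with Stat5 siRNA on 97200_f_at, and Snrpf had 2021, 1833 and 1659, then 1696 and 1983, on 111352_at. Snrpb and Snrpe were measured only by probe sets of the cross-hybridising kind. Apart from Snrpb at 30 min, the values of Snrpb, Snrpe and Snrpf were within the spread of 1 ratio. In SF3A and SF3B, Sf3b6, which contacts the branch site adenosine, read 1224, 1183 and 1212 with control siRNA and 1014 and 1251 with Stat5 siRNA. Of the 8 SF3A and SF3B genes, the 7 other than Sf3a1 stayed between -0.13 and 0.02 for 2 h against none. Among them, Sf3a2 and Sf3b2 were measured only by probe sets of the cross-hybridising kind. The 3 of Sf3b2 lay between -0.23 and -0.06 in that comparison, but between -0.50 and 0.27 at 30 min against none.

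Snrpc, the U1 protein that steadies the pairing of U1 with the start of the intron, had 1 probe set that stood apart. On U74C, 171522_r_at read 1719 without IL-3, 448 at 30 min and 461 at 2 h with control siRNA, and 1897 and 2268 with Stat5 siRNA. The 2 control arrays with IL-3 were low and the other 3 high. Its log2 ratios were -1.94 at 30 min and -1.90 at 2 h against none, and 2.08 and 2.30 for Stat5 siRNA over control siRNA at 30 min and 2 h. At the level of probe sets it was the 1 member lower by 2-fold in each IL-3 comparison with none (0.587% of all probe sets at 30 min and 2.04% at 2 h) and the 1 member higher in each siRNA comparison (0.416% at 30 min and 0.631% at 2 h).

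The 2 other probe sets of Snrpc that reached the floor did not follow it. On U74A, 94313_at read 555, 466 and 506 with control siRNA and 536 and 525 with Stat5 siRNA. On U74C, 171002_r_at read 468, 322 and 416, then 485 and 376. The first, the one not of the cross-hybridising kind, gives the value of the gene: -0.25 at 30 min and -0.13 at 2 h against none, and 0.20 and 0.05 between the siRNAs. What transcript 171522_r_at measured was not tested.

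The next question was how IL-3 acted over time in cells with less Stat5. From 30 min to 2 h with Stat5 siRNA, 1 of 41 member genes, Srsf3, was higher by 2-fold and 0 were lower, against 1.64% higher and 1.19% lower among all 8247 genes. Srsf3 was 2.28-fold higher at 2 h (log2 1.19). Its 101004_f_at was also the 1 member probe set that passed, against 1.67% of all probe sets. The call rests on 101004_f_at alone: with the floor halved, 101003_at entered and the value was 0.25, and with cross-hybridising probe sets left out Srsf3 had no value. The SR proteins as a class had a median of 0.53, with 8 of 9 above 0, and reached 0.68 for Srsf10 (at least), 0.58 for Srsf1, 0.57 for Srsf5, 0.53 for Srsf9, 0.39 for Srsf6 and 0.31 for Srsf2. Srsf4 was at -0.09. With the floor halved the median of the class was 0.31, with 7 of 9 above 0.

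Srsf1, the founding SR protein, shows the same split between designs as Srsf6. On U74A, 160539_at read 221, 277 and 263 with control siRNA and 237 and 377 with Stat5 siRNA, and 104586_at read 201, 193 and 248, then 203 and 304. On both the Stat5 siRNA array at 2 h was the highest. On U74B, 105797_at stayed between 195 and 212. The log2 ratios of 2 h over 30 min with Stat5 siRNA were 0.67, 0.58 and -0.05. Srsf9 had only a U74A probe set, 96834_at, which read 896, 837 and 1011 with control siRNA and 667 and 963 with Stat5 siRNA, the lowest being the Stat5 siRNA array at 30 min.

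The other roles had smaller shifts in the same comparison. The medians were 0.08 for hnRNP genes (11 of 16 above 0), 0.13 for the Sm ring (4 of 5) and 0.17 for SF3A and SF3B (6 of 8). Hnrnpa0 was highest among them (at least 0.61), followed by Snrpa1 at 0.41, Sf3b3 at 0.39 and Hnrnpc at 0.35, while Snrpb was at -0.24, Hnrnpul1 at -0.20 and Hnrnpdl at -0.18. Over all roles 31 of 41 members (75.6%) were above 0, against 47.2% of all genes, with medians of 0.13 and -0.02. Scaling moved this size: with each array scaled to its median, the members' median was 0.31, with 0.72 for SR proteins and 0.28 for hnRNP genes, and that of all genes 0.04. On U74A that scaling lowered the Stat5 siRNA array at 30 min by a log2 value of -0.10 and raised the one at 2 h by 0.10.

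The 2 time courses share no array. Across the 41 genes measured in both, the log2 ratios of 2 h over 30 min had a Pearson r of 0.61 and a Spearman rho of 0.52, near the r of 0.61 over all 7924 genes. Genes are not independent replicates, and the points share the array designs. The sign was the same in 19 of 41 members (46.3%), against 67.9% of all genes. For SR proteins 7 of 9 genes were above 0 in both time courses and 1, Srsf4, was below 0 in both, while Srsf1 differed. Of the 16 hnRNP genes 2 were above 0 in both, Hnrnpa0 and Hnrnpc, and 3 below 0 in both, Hnrnpll, Hnrnpul1 and Hnrnpdl. Most hnRNP genes were thus slightly lower at 2 h with control siRNA and slightly higher with Stat5 siRNA, with values mostly inside the spread of 1 ratio.

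**Figure D4:**
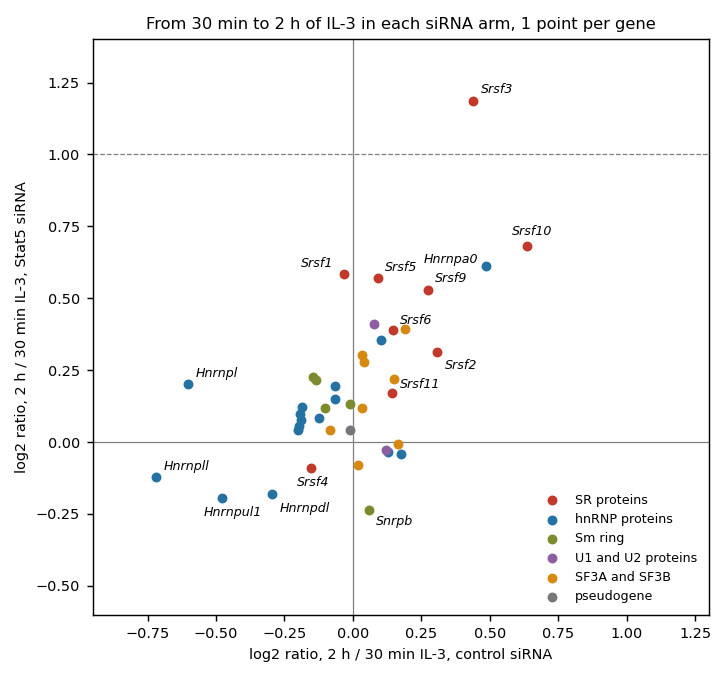
Log2 ratio of 2 h over 30 min of IL-3 for 41 splicing genes, with control siRNA on the horizontal axis and Stat5 siRNA on the vertical axis, 1 point per gene coloured by role, and the dashed line at 2-fold. Of the 9 SR protein genes 7 lie in the upper right, with Srsf3 at 0.44 and 1.19, Srsf4 lies in the lower left and Srsf1 in the upper left, and Hnrnpll, Hnrnpul1 and Hnrnpdl lie in the lower left.

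The direct comparison of siRNAs asked which genes differed with less Stat5. At 30 min of IL-3, 0 of 40 member genes were higher and 0 lower by 2-fold with Stat5 siRNA, against 0.308% higher and 0.382% lower among all 8124 genes. The members' median was -0.06 and that of all genes 0.00. The lowest were Hnrnpl at -0.56, Srsf5 at -0.39, Snrpa1 at -0.38, Srsf6 at -0.37, Srsf3 at -0.35 and Srsf9 at -0.33, all beyond the spread of 0.23. The SR proteins had a median of -0.20, with 3 of 8 above 0, and hnRNP genes -0.09, with 5 of 16 above 0, and both signs held under the 2 other scalings. The SR median was -0.07 with the floor halved and -0.33 with it doubled, and the hnRNP median was -0.17 with each array scaled to its median. For Srsf5 this left 895 with Stat5 siRNA, between 666 without IL-3 and 1176 with control siRNA and IL-3. Srsf3, Srsf9 and Srsf6 160182_at were below even their unstimulated control signal. Of the SR genes among the lowest, Srsf3, Srsf5 and Srsf9 were measured on U74A alone, and the 2 U74B probe sets of Srsf6 gave -0.15 and -0.12 beside -0.59 on U74A.

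At 2 h the SR genes that had been lower were near or above the control. Of 41 member genes 0 were higher and 0 lower by 2-fold, against 0.504% higher and 0.43% lower among all 8132 genes. Srsf3 was at 0.40, Srsf5 at 0.08, Srsf9 at -0.07 and Srsf6 at -0.12. The highest were Srsf3, Hnrnpll at 0.38, Snrpd3 at 0.35, Hnrnpa1 at 0.34 and Srsf1 at 0.30, and the lowest Snrp1c-ps2 at -0.25, Hnrnpu at -0.18 (a bound), Sf3b2 at -0.13, Srsf6 at -0.12 and Sf3a1 at -0.11. The value of Hnrnpa1 rests on 92724_at, which read 123 with control siRNA, near the floor, and 156 with Stat5 siRNA. The brighter 97272_at, annotated to Hnrnpa1 and other symbols, went the other way, from 267 to 238. Of the 16 hnRNP genes 14 were above 0, with a median of 0.17, and of all members 30 of 41 were, with a median of 0.11 beside 0.00 for all genes. With each array scaled to its median the hnRNP median was 0.28. Hba-a1, Itga2b and the summed erythroid and megakaryocyte markers were also higher with Stat5 siRNA at both times, while Epor was lower at 30 min. The part of these markers in the siRNA ratios was not tested. The 2 probe sets of Hnrnpll gave 0.39 on U74A and 0.38 on U74B. Those of Snrpd3 differed more, with 0.57 on U74A (98077_at) and 0.14 on U74C (139522_at).

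Between the 2 siRNA comparisons, which share no array, the members matched little. Across 40 genes r was 0.11 and rho 0.12, beside an r of 0.20 over all 7699 genes, and the sign was the same in 18 of 40 (45%), against 55.9% of all genes. Each of these arrays also enters a time course above, so the siRNA ratios and the time ratios are not separate evidence: a high signal with Stat5 siRNA at 2 h raises both. Among the 19 SR protein probe sets that reached the floor, that array was the highest of the 5 for 9 and the control array at 2 h for 5, and over all 14553 probe sets these shares were 20.8% and 21.3%.

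Promoters were read for the members because the siRNA aims at a DNA-binding factor. RefSeq windows on the GRCm38.p6 assembly, from 250 bases before to 50 after the start of a gene, were found for 39 of the 44 genes, 49 windows in all. The STAT motif searched was TTCNNNGAA and the E-box CACGTG, on both strands, each being its own reverse complement. The STAT motif was in a window of 5 of 39 member genes (12.8%), namely Hnrnpa2b1, Hnrnph1, Hnrnpr, Sf3b6 and Snrpg, and in 9.55% of all 27025 genes. The E-box was in 3 of 39 (7.69%), Hnrnpd, Hnrnph2 and Hnrnpm, and in 8.09% of all genes. No window of an SR protein gene held these letters. The median GC content was 61% in the members' windows and 52.7% in all 32851.

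The 250 bases before the start are given for Srsf3 and Srsf5, the SR genes with the largest ratios, for Snrpg, whose window has the STAT motif, and for Hnrnpd, whose window has the E-box. Capitals mark the motif, and a match describes the letters and shows no binding. Srsf3 is at chr17:29032410-29032659 on the plus strand, Srsf5 at chr12:80945249-80945498 on the plus strand, Snrpg at chr6:86371290-86371539 on the plus strand and Hnrnpd at chr5:99978939-99979188 on the minus strand, each written 5′ to 3′ on the strand of the gene.
Srsf3: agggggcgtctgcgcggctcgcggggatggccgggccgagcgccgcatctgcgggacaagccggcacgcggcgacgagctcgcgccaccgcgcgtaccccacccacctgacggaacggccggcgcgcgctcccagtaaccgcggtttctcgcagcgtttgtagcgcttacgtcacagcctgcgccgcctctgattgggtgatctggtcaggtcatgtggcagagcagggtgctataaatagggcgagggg
Srsf5: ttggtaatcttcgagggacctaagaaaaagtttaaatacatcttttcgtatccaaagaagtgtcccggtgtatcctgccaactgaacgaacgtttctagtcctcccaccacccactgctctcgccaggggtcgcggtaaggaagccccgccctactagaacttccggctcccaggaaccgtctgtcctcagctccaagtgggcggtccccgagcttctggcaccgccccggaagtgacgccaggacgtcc
Snrpg: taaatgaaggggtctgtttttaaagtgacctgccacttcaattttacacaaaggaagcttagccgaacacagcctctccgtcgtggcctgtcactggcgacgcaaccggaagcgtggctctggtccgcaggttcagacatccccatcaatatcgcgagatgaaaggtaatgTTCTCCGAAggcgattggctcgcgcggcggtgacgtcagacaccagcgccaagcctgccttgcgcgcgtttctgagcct
Hnrnpd: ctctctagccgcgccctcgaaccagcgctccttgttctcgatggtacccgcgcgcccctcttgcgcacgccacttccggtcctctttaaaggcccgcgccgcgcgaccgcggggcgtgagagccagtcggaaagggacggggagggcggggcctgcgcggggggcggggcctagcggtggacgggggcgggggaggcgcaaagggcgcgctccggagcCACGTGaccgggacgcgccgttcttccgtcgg
The STAT motif of Snrpg went with signals of 2176, 2242 and 2090 with control siRNA and 1982 and 2151 with Stat5 siRNA on 93999_at, a span inside the spread of 1 ratio. Hnrnpd, which binds AU-rich mRNA, read 878, 902 and 785, then 863 and 889, on 94303_at. Srsf3 and Srsf5 have neither motif in these windows. They were chosen for their large ratios, so setting their sizes beside those of Snrpg and Hnrnpd cannot show whether a motif matters.

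Other genes of the pathway were taken from 5 lists. Of 63 other spliceosome proteins 58 were on the arrays, of 41 other splicing regulators 36, of 12 SR protein kinases and import factors 12, of 14 genes of the SMN complex and Sm ring assembly 11, and of 10 genes of nonsense-mediated decay 7. In the 6 comparisons 1 gene of these lists passed 2-fold: Gemin5, the subunit of the SMN complex that recognises small nuclear RNAs, from 30 min to 2 h with control siRNA. Its U74C probe set 135114_at read 209, 192 and 411 without IL-3, at 30 min and at 2 h with control siRNA, and 231 and 432 with Stat5 siRNA. Both 2 h arrays were well above the other 3. The log2 ratio was 1.09 with control siRNA and 0.90 with Stat5 siRNA, and 0.07 between the siRNAs at 2 h. Its other probe set, on U74A, was under the floor on all arrays. From 30 min to 2 h with control siRNA, 52, 32, 11, 9 and 4 genes of the lists were measured, in the order above. Of all 8234 genes 1.89% were higher and 1.65% lower by 2-fold there, so this 1 call is not read as a trait of the lists.

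Of the kinases that phosphorylate SR proteins, Clk1 had the largest ratio at 2 h against none, a log2 value of -0.80. On 93274_at it read 972 without IL-3, 720 at 30 min and 559 at 2 h with control siRNA, and 675 and 566 with Stat5 siRNA. All 4 arrays with IL-3 were below the one without, and at each time the 2 siRNAs were close. Srpk2 was at -0.83 between the siRNAs at 2 h (a bound). Of the other splicing regulators the largest at 2 h against none were Syncrip at 0.80 and Sfswap at 0.76, and from 30 min to 2 h with Stat5 siRNA Tra2b, an SR-like activator of exons, at 0.84. Of the other spliceosome proteins Smndc1 had 0.84 at 2 h against none (1 of its 2 probe sets a bound) and Ddx42 -0.53, while Aqr at 0.82 and Usp39 at 0.78 were highest between the siRNAs at 2 h. In the SMN list Gemin2 was at -0.96 for 2 h against none, opposite to Gemin5 at 0.97, and in the decay list Smg5 was at 0.83.

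The medians of these lists at 2 h against none were 0.06 for other spliceosome proteins (31 of 52 above 0), 0.05 for other regulators (17 of 32), -0.03 for kinases and import factors (5 of 11), 0.23 for the SMN list (6 of 9) and 0.23 for decay factors (4 of 4). The SR proteins, at 0.25 with 8 of 9 above 0, thus stood beside the SMN and decay lists in this comparison. From 30 min to 2 h with Stat5 siRNA the SR proteins' median of 0.53 was set against 0.01, 0.10, 0.01, 0.31 and 0.01 in the lists in the same order. Between the siRNAs at 2 h the other regulators had 27 of 32 above 0 with a median of 0.16, close to the hnRNP genes at 0.17, while 0 of 4 decay factors were above 0, with a median of -0.26. The median of all genes was 0.00. Other scalings, which moved the members' medians in this comparison, were not tried for the lists.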

How the data were processed

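Total RNA was measured on Affymetrix U74A, U74B and U74C arrays. The authors deposited 1 linear intensity per probe set, computed with MAS5, per the submitters' processing notes and the series' design text, and the version was not given in the sources used here. The deposited arrays had nearly the same trimmed mean, with 2% of probe sets left out at each end, and were brought here to exactly the same one. The floor is the signal that 14553 of 36701 non-control probe sets reached on their highest array, the number the design text gives for the authors' filters, which used calls not analysed here. A probe set was measured in a comparison if either array reached the floor.

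Symbols came from the platform annotation. It gave 1 symbol to 29131 probe sets, none to 6846 and more than 1 to 724, which were not used to name genes. The gene table of GRCm38.p6 changed 0 symbols. The members, lists and alternatives were chosen with earlier results of these data known. Named were member genes past 2-fold, the 5 highest and 5 lowest per comparison, the 2 with the highest signals in each role and those with probe sets 2-fold apart, and in each list genes past 2-fold or otherwise 2 with the largest ratios. Other genes were named after their values were seen. Alternatives were the floor halved or doubled, signals not raised, scaling to the median, quantile normalization, the brightest probe set, cross-hybridising probe sets left out, and U74A and U74B alone. Motifs of the proteins were not analysed here. The ratio and calling steps were tested on simulated data. Python 3.11.15, pandas 2.3.3, numpy 2.4.6, scipy 1.17.1 and matplotlib 3.10.9 were used.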

Additional observations from a re-analysis of the deposited data

How the results depend on the processing

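Of 144 recomputed counts and medians of the members, 142 kept their value within the spread between probe sets of 1 gene or, for counts, their number, over 8 alternatives. The 2 others concern 1 result: from 30 min to 2 h with Stat5 siRNA the number of members higher by 2-fold was 1, and became 0 with the floor halved and 0 with cross-hybridising probe sets left out. In the first case a dim Srsf3 probe set entered and the gene had 0.25, and in the second no Srsf3 probe set was left. The spread used is that of 1 ratio, which is a wide bar for a median over many genes, and most counts were 0 in every setting. Medians that kept their value by this bar could still move or change sign. The median of the members for 2 h over 30 min with control siRNA was 0.02, and -0.01 with the floor doubled and -0.03 without cross-hybridising probe sets. With each array scaled to its median the members' medians between the siRNAs were -0.15 at 30 min and 0.20 at 2 h, against -0.06 and 0.11. Of 1481 recomputed values of named genes 1436 stayed within that spread, 44 moved by more and 1, Srsf3 above, lost its call. No paired analysis was possible because each condition had 1 array per design. Single arrays, 36 of 102 probe sets of a kind that can cross-hybridise, and 34 under the floor limit what can be said.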

Other observations

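Some splicing genes were measured only, or also, by probe sets that the annotation gives to several symbols. There were 9 such probe sets with at least 1 symbol of these families, and none entered the values above. The probe set 100101_at (Gm21559, Gm5161 and Snrpa) read 425 without IL-3, 452 at 30 min and 576 at 2 h with control siRNA, and 451 and 499 with Stat5 siRNA, so both 2 h arrays were the highest. The probe set 101523_at (Gm6793 and Hnrnpa3) read 2620, 2926 and 2387 with control siRNA and 2823 and 2778 with Stat5 siRNA, and its lowest array was the control at 2 h. The probe set 97272_at (Gm10052, Gm5643 and Hnrnpa1) read 326, 338 and 267, then 262 and 238, lower in both 2 h arrays than in the 30 min array of the same siRNA. The probe set 95049_at (Gm5848 and Snrpd2) read 2835, 2816 and 2717, then 2419 and 2459, lower in both Stat5 siRNA arrays than in the 3 control arrays. Which of the genes named with a probe set gave its signal was not tested.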
